A study of Citrus sinensis with 6 samples.

Results

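Cs_ont_9g007110 and Cs_ont_1g019000 are 2 genes of sweet orange (*Citrus sinensis*) that carry the Gene Ontology (GO) function term transcription regulator activity and whose transcripts were far lower in leaves of NaCl-treated seedlings than in control leaves. They were picked by identifier for that fall, so their difference between NaCl and control is described without a test. They are 2 of 1102 genes with the term and 2 of 29875 genes listed in all. The annotation gives the first as a DNA-binding transcription factor and the second as a transcription corepressor placed in the KEGG pathway plant hormone signal transduction.

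Leaf RNA was sequenced from 3 NaCl libraries and 3 control libraries. The NaCl group was tissue-cultured sweet orange seedlings exposed to 2% NaCl for 14 days, and the control group was seedlings kept on MS medium, a standard plant culture medium, with no added salt. Each library is described as a biological replicate that pooled several seedlings. The treatment protocol in the sample labels names boron at 0.01 mg/L for 25 days for both groups, although NaCl is named in their titles and treatment fields. No batch is given. By title the NaCl samples are leaf, whereas the controls are leaf blades given sterile water, so a difference in the dissected tissue or in the watering cannot be told apart from NaCl.

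A DNA-binding transcription factor recognises short DNA sequences near a gene and raises or lowers its transcription. A corepressor usually does not bind DNA itself but is brought to a gene by a DNA-binding protein, where it holds transcription down. In plants, several hormone pathways work by removing such a block: repressor proteins keep the target genes silent until the hormone is perceived and the repressors are degraded. Both genes share all 10 of their GO component terms, the most specific of which is nucleus, and the same component annotation was held by 522 of 824 transcription regulator genes with any. Neither identifier is paired with a gene name, so no family is given here.

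Transcript levels are in FPKM, fragments per kilobase of transcript scaled to library depth, which allows levels of genes of different length to be compared. Library totals recovered from these values were 17307079 to 19520980 reads in NaCl and 14325408 to 17558452 in control, so that a single read over 1 kb of transcript equalled 0.0512 to 0.0698 FPKM. Genes of photosynthesis summed to 5145 to 7628 FPKM in NaCl and 3330 to 6530 FPKM in control, and those of antenna proteins to 2298 to 3657 FPKM in NaCl and 1558 to 3097 FPKM in control, so the green leaf annotation was highly expressed in every library and the groups overlapped. Genes of cutin, suberine and wax synthesis, a mark of epidermis, summed to 239, 237 and 261 FPKM in NaCl, all below 301, 269 and 265 FPKM in control. The part of this lower epidermal sum in the results was not tested. In bulk leaf tissue, fewer cells of a type and less RNA per cell cannot be told apart. On the first principal component of the tested genes (53.7% of the variance), the NaCl libraries lay at -51.7 to -25.6, and of the control libraries replicate 2 (9.50) lay nearest to them, with replicates 1 (51.5) and 3 (66.3) farther away.

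The transcription factor gene Cs_ont_9g007110 had 4.20, 3.56 and 1.74 FPKM in NaCl replicates 1, 2 and 3, against 108, 58.2 and 166 FPKM in control replicates 1, 2 and 3. Every NaCl library was low and every control library high, with no overlap. Of all tested genes, 12.4% were likewise lower in NaCl with no overlap, and both genes of the pair were picked for their fall. Behind these values stood 47, 41 and 22 reads in NaCl and 1232, 561 and 1541 reads in control, over a recovered length of 647 bases. The exact Poisson 95% interval ran from 3.08 to 5.58 FPKM in NaCl replicate 1 and from 1.09 to 2.64 FPKM in NaCl replicate 3. These intervals cover counting error only, and they did not overlap, so the NaCl libraries differed among themselves by more than that error. The gene averaged 3.17 ± 1.27 FPKM in NaCl and 111 ± 54.1 FPKM in control (SD, n = 3 each), which put the NaCl mean at 2.85% of the control mean. Even between the closest libraries, NaCl replicate 1 and control replicate 2, the ratio of control to NaCl was 13.9.

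The corepressor gene Cs_ont_1g019000 was the more abundant of the pair in every library. It had 32.5, 21.9 and 11.4 FPKM in NaCl replicates 1, 2 and 3, against 374, 198 and 443 FPKM in control replicates 1, 2 and 3. The groups again did not overlap, and the NaCl libraries spread more widely than counting error, since the interval was 30.5 to 34.7 FPKM in NaCl replicate 1 and 10.3 to 12.7 FPKM in NaCl replicate 3. The reads behind them were 915, 632 and 363 in NaCl and 10671, 4795 and 10306 in control, over 1625 bases. The mean was 22.0 ± 10.5 FPKM in NaCl and 338 ± 126 FPKM in control (SD, n = 3 each), so that the NaCl mean was 6.49% of the control mean. The smallest ratio of a control library to a NaCl library was 6.09.

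**Figure D1:**
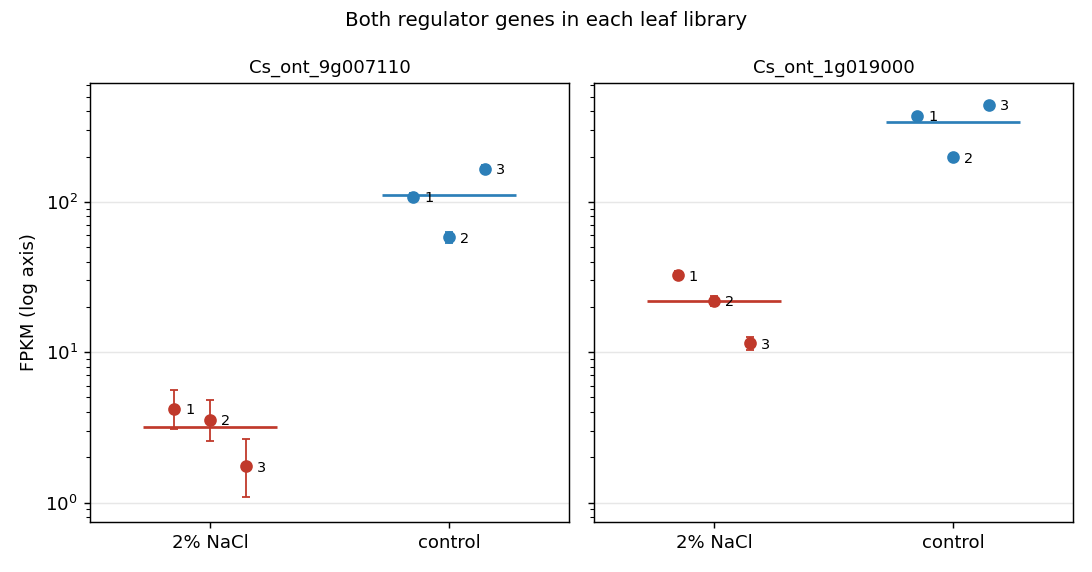
FPKM of Cs_ont_9g007110 (left) and Cs_ont_1g019000 (right) in each leaf library on a log axis; points are libraries with their replicate number, whiskers are exact Poisson 95% intervals of the reads (counting error only), and horizontal lines are group means. All 3 NaCl points lie below all 3 control points for both genes, and control replicate 2 and NaCl replicate 3 are the lowest of their groups.

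On the scale of log2(FPKM + 1), the difference of NaCl minus control was -4.68 (standard error 0.41) for Cs_ont_9g007110 and -3.92 (standard error 0.43) for Cs_ont_1g019000. They were the lowest and second lowest of the 726 transcription regulator genes with enough signal to test, and the 4th and 6th lowest of all 17285 genes tested, of which 178 (1.03%) had a log2 difference of -2 or below. That place depends on how low values are treated: the ranks were 40 and 88 with a pseudocount of 0.01, 6 and 25 with one of 0.1, and 19 and 57 on recovered reads with voom weights. Without control replicate 2 the differences were -5.07 for Cs_ont_9g007110 and -4.27 for Cs_ont_1g019000, and over all single libraries left out they ranged from -5.07 to -4.32 and from -4.27 to -3.54. The next regulator genes below them in this order were a DNA-binding transcription factor gene of 620 bases at -3.55, with 6.15, 13.4 and 0.661 FPKM in NaCl and 78.0, 50.3 and 66.9 FPKM in control, and a transcription factor gene of 681 bases at -3.52.

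In NaCl leaves the pair stood far below the place near the upper end of the transcriptome that it had in control leaves. Cs_ont_1g019000 stood at rank 3540, 5097 and 8387 of all genes in the NaCl libraries and at rank 155, 344 and 129 in the control libraries. Cs_ont_9g007110 stood at rank 12332, 12582 and 14617 in NaCl and at rank 858, 1761 and 491 in control. Among transcription regulator genes alone, Cs_ont_1g019000 was number 163, 234 and 352 in NaCl and number 11, 18 and 10 in control, so it was among the 20 most abundant regulator transcripts of each control library. Cs_ont_9g007110 was number 517, 520 and 600 of them in NaCl and number 54, 95 and 38 in control.

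The summed FPKM of the regulator genes was lower in every NaCl library than in any control library, at 22015, 20459 and 22336 in NaCl and 27728, 23377 and 29403 in control. Abundant genes weigh most in this sum. Of the 724 tested regulator genes other than the pair, 335 had a negative and 389 a positive log2 fold change, so most did not follow the sum. Cs_ont_1g019000 made up 0.148%, 0.107% and 0.0512% of that sum in NaCl and 1.35%, 0.848% and 1.51% in control. Cs_ont_9g007110 made up 0.0191%, 0.0174% and 0.00780% in NaCl and 0.391%, 0.249% and 0.565% in control. The share of each gene thus fell with its level, and the shares did not overlap between groups.

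The 2 genes placed the 6 libraries in the same order. For both, the order by level was NaCl replicates 3, 2 and 1 and then control replicates 2, 1 and 3, the last being highest. Control replicate 2 held 42.4% of the mean of the other controls for Cs_ont_9g007110 and 48.5% for Cs_ont_1g019000. On a scale where the mean log2 value of the other controls is 0 and that of NaCl is 1, control replicate 2 stood at 0.235 for Cs_ont_9g007110 and at 0.242 for Cs_ont_1g019000. Over the 1800 genes that passed both call thresholds without control replicate 2, its median position was 0.520 (quartiles 0.336 and 0.741). The shift of this library toward NaCl was thus not particular to the pair, and it was smaller for the pair than for most of those genes.

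Spread between libraries of one group was not used to choose the genes, but in control it is not independent of their fall. Control replicate 2 lay nearest to NaCl on the first principal component and was the lowest control for both genes. Genes of like level were matched on mean FPKM and not on fold change, so the control percentages below may partly restate the fall. Both genes were variable by this measure. The coefficient of variation of Cs_ont_9g007110 was 40.2% in NaCl and 48.7% in control. Tested genes with a mean within 2-fold of it had a median of 24.5% in NaCl (3875 genes) and 19.5% in control (1571 genes), and the gene lay above 72.1% of them in NaCl and 93.3% in control. The coefficient of variation of Cs_ont_1g019000 was 48.0% in NaCl and 37.3% in control. Genes of like level had a median of 12.5% in NaCl (6098 genes) and 26.0% in control (384 genes), and it lay above 93.3% of them in NaCl and 76.0% in control. The highest library of a group exceeded the lowest by 2.41-fold in NaCl and 2.86-fold in control for Cs_ont_9g007110, and by 2.84-fold in NaCl and 2.23-fold in control for Cs_ont_1g019000.

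The pair did not fall in the same proportion. The ratio of Cs_ont_1g019000 to Cs_ont_9g007110 FPKM was 7.75, 6.14 and 6.57 in NaCl and 3.45, 3.40 and 2.66 in control. All NaCl ratios were higher, that is, Cs_ont_9g007110 lost the larger part of its level. The control mean was 35.0 times the NaCl mean for Cs_ont_9g007110 and 15.4 times for Cs_ont_1g019000.

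Both transcripts were shorter than the median regulator gene, which had 1875 bases (959 genes with a recovered length). Only 9.38% of regulator genes were shorter than Cs_ont_9g007110 and 41.3% were shorter than Cs_ont_1g019000. Of the values of the pair, those of Cs_ont_9g007110 in NaCl rested on the fewest reads.

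The lowered pair was set against the other genes of its class with limma, a linear model fitted to log2(FPKM + 1) over all 17285 genes with at least 0.5 FPKM in 3 or more libraries. A call needed a Benjamini-Hochberg adjusted p no higher than 0.05 together with a log2 fold change of 1 or more in either direction. Over all tested genes, 472 were called (2.73%), 303 of them lower (1.75%) and 169 higher (0.978%), against 275 lower and 85 higher under upper-quartile scaling, and the median log2 fold change was 0.18. Without the 2 genes, 724 transcription regulator genes were tested of 1100 listed. Of them 24 were called lower (3.31%) and 6 higher (0.829%), with a median log2 fold change of 0.05 that lay between -0.06 and 0.10 over the alternatives and so changed sign. Groups did not overlap in 137 of the 724 regulator genes that were lower and 117 that were higher. Over all 17285 tested genes these counts were 2150 and 4085 (12.4% and 23.6%). More regulator genes were thus separated lower than higher, the reverse of all tested genes. At an unadjusted p under 0.05, 120 regulator genes were lower and 99 higher (16.6% and 13.7% of those tested), beside 11.2% and 19.1% of all tested genes. The counts depended on single libraries. For all tested genes, 884 were called lower (5.11%) and 916 higher (5.30%) without control replicate 2. Without control replicate 2, 63 other regulator genes were called lower and 42 higher, without NaCl replicate 1 the counts were 6 and 0, without NaCl replicate 2 they were 5 and 3, and without NaCl replicate 3, control replicate 1 or control replicate 3 limma called 0 of these 724 genes. In those last settings 93, 98 and 96 regulator genes were lower and 53, 69 and 54 higher at an unadjusted p under 0.05. Without control replicate 3, limma called 0 of all 17285 genes, with 1384 lower and 1700 higher at an unadjusted p under 0.05. With voom weights on recovered reads from all 6 libraries, 21 other regulator genes were called lower and 6 higher.

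**Figure D2:**
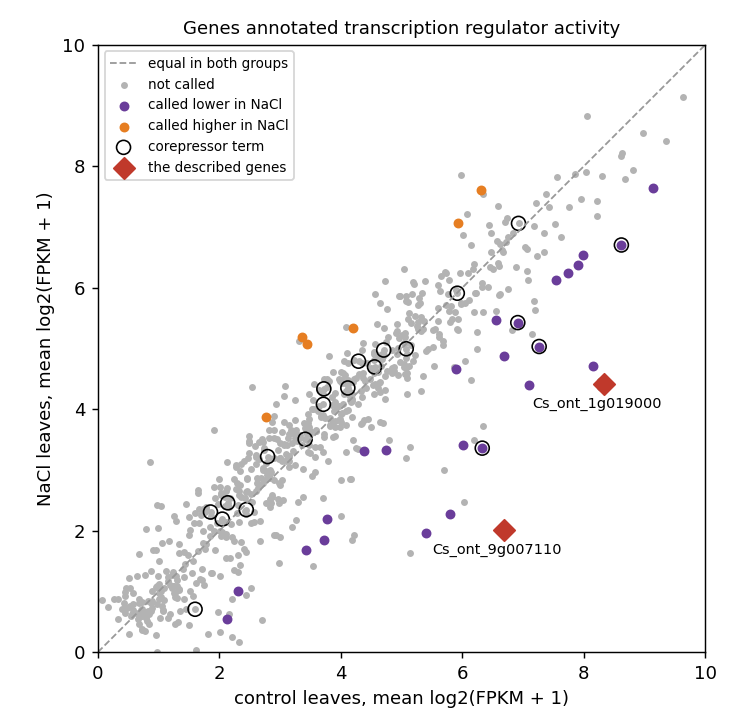
Mean log2(FPKM + 1) in NaCl leaves (vertical axis) against control leaves (horizontal axis) for each tested transcription regulator gene, with the line of equal levels dashed; purple and orange points were called lower and higher in NaCl, rings mark the corepressor term and diamonds the 2 described genes. Cs_ont_9g007110 and Cs_ont_1g019000 lie farthest below the line, at -4.68 and -3.92.

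DNA-binding transcription factor genes, the class of Cs_ont_9g007110, make up most of the tested regulators. Without it, 661 of 1018 were tested, and 20 were called lower and 5 higher, with a median log2 fold change of 0.04. These calls were 3.03% and 0.756% of those tested, beside 1.75% and 0.978% of all tested genes. Its own annotation is short: the function terms stop at DNA-binding transcription factor activity, and 427 other genes have exactly these terms. Of the 270 of these that were tested, 8 were called lower (2.96%) and 2 higher, and their median was 0.01. Cs_ont_9g007110 ranked 194 of these 428 genes by mean FPKM in NaCl and 13 by mean FPKM in control. Genes with a term for DNA binding, which neither of the pair carries, gave 12 lower and 5 higher calls of 617 tested (1.94% and 0.810%). In this list 880 genes stood, and the median was 0.11.

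Among the other regulator genes that were called, the 4 largest falls and the 4 largest rises were of the transcription factor class, apart from 1 corepressor that fell. Uncalled genes had log2 fold changes of up to -3.55 and 2.26. The 681-base gene had 5.68, 2.97 and 3.31 FPKM in NaCl and 71.8, 40.1 and 56.8 FPKM in control, and its limma adjusted p was 0.011. A transcription factor gene in the hormone and MAPK pathways had 3.58, 2.05 and 3.25 FPKM in NaCl and 47.7, 28.7 and 51.4 FPKM in control, a log2 fold change of -3.44 (standard error 0.27, limma adjusted p = 0.011). These genes reached NaCl levels like that of Cs_ont_9g007110, but from lower control levels. Another transcription factor gene was lower by nearly the same log2 difference, with 67.5, 12.1 and 19.2 FPKM in NaCl and 329, 175 and 394 FPKM in control (limma adjusted p = 0.045). In the other direction, Cs_ont_2g011150 had 28.1, 31.1 and 50.1 FPKM in NaCl and 11.7, 8.25 and 8.05 FPKM in control (log2 fold change 1.83, standard error 0.26, limma adjusted p = 0.037). Cs_ont_4g007980 had 41.5, 26.2 and 31.7 FPKM in NaCl and 6.39, 14.2 and 10.3 FPKM in control (log2 fold change 1.63, standard error 0.30, limma adjusted p = 0.045). Both carry the transcription factor term, and the next called rises were of 1.30 and 1.15. 

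The class of Cs_ont_1g019000 is small, and its called members all moved the same way. Besides it, 22 genes carry the corepressor term, of which 20 were tested, with a median log2 fold change of 0.14. In limma 4 of these 20 (20%) were called lower and 0 higher, beside 1.75% and 0.978% of all tested genes. At an unadjusted p under 0.05, 5 of the 20 were lower and 3 higher, beside 11.2% and 19.1% of all tested genes. With voom weights on recovered reads 4 were called lower and 0 higher. Among coregulator genes, the wider class that contains corepressors, the only calls were the same 4 genes. They were 6.56% of the 61 tested, of 81 listed (median 0.16), and voom likewise gave 4 lower and 0 higher. At an unadjusted p under 0.05, 6 coregulator genes were lower and 13 higher (9.84% and 21.3%), near the 11.2% and 19.1% of all tested genes. The 8 other genes with exactly the function terms of Cs_ont_1g019000 were all tested, with a median log2 fold change of 0.02. Of them 3 (37.5%) were called lower, beside 1.75% of all tested genes, and these 3 are among the 4 corepressor calls already counted. Among these 9 genes Cs_ont_1g019000 ranked number 6 by mean FPKM in NaCl and number 2 in control.

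Within the corepressors, 5 genes including Cs_ont_1g019000 are placed in plant hormone signal transduction, a subset formed after the values were seen. Cs_ont_1g019000 fell furthest of these, at 22.0 FPKM in NaCl and 338 FPKM in control. A corepressor gene of 2313 bases had 32.5, 42.2 and 23.2 FPKM in NaCl and 183, 102 and 190 FPKM in control (log2 fold change -2.23, standard error 0.31, limma adjusted p = 0.037). The most abundant, of 3027 bases, had 128, 91.4 and 93.8 FPKM in NaCl and 401, 293 and 512 FPKM in control, a log2 fold change of -1.91. In these genes control replicate 2 was the lowest control library. A gene of 2249 bases had 43.7, 54.5 and 31.0 FPKM in NaCl and 122, 90.4 and 154 FPKM in control, a log2 fold change of -1.49. The last of the 5 was level, with 58.7, 60.1 and 58.4 FPKM in NaCl and 56.7, 59.7 and 61.8 FPKM in control.

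Outside the hormone pathway, 1 corepressor gene of 888 bases was called lower, with 7.48, 19.8 and 5.13 FPKM in NaCl and 80.4, 49.7 and 124 FPKM in control (log2 fold change -2.97, standard error 0.51, limma adjusted p = 0.043). The remaining 15 were not called and had log2 fold changes between -0.89 and 0.62. Without control replicate 2 the 4 corepressor calls numbered 4 again, without NaCl replicate 2 they were 2, and without NaCl replicate 1, NaCl replicate 3, control replicate 1 or control replicate 3 limma called 0, with 4 or 5 lower at an unadjusted p under 0.05. With no minimum on FPKM the count was also 0.

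**Figure D3:**
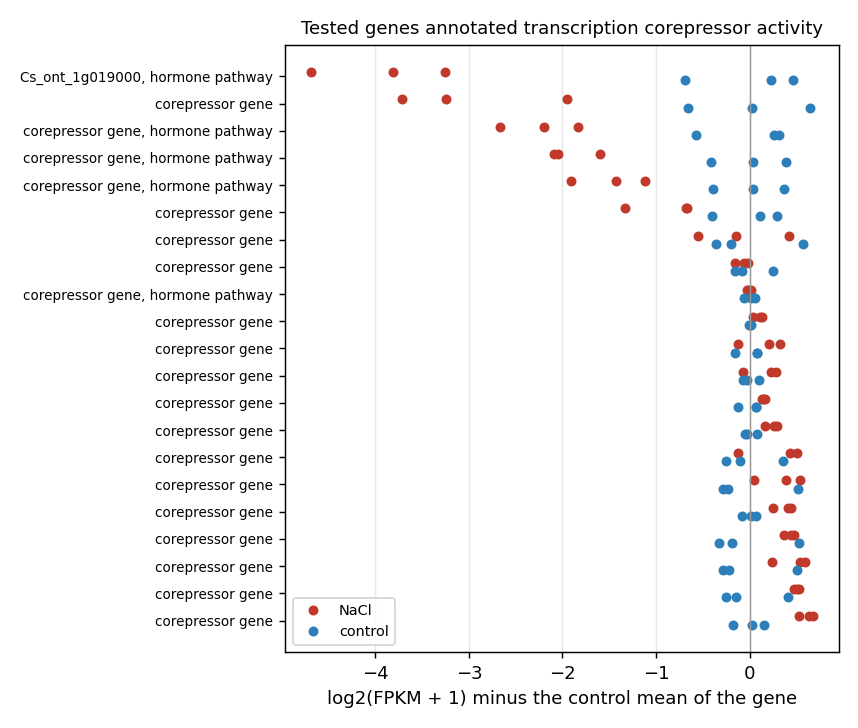
Tested genes annotated with transcription corepressor activity, 1 gene per line, with log2(FPKM + 1) of each library minus the mean of the control libraries of that gene on the horizontal axis (red NaCl, blue control). Cs_ont_1g019000 is the top line with the NaCl points farthest left. The NaCl and control points of the 4 called genes beneath it do not overlap, and most other genes lie around 0. Of the 20 tested genes besides Cs_ont_1g019000, the groups did not overlap in 5 that were lower in NaCl and in 6 that were higher. Over all tested genes, 12.4% were lower and 23.6% higher with no overlap.

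Plant hormone signal transduction, the pathway of Cs_ont_1g019000, had 184 other tested genes of 275 listed. In limma 12 of these (6.52%) were called lower and 0 higher, beside 1.75% and 0.978% of all tested genes, and the median log2 fold change was 0.15. At an unadjusted p under 0.05, 36 were lower and 20 higher (19.6% and 10.9%), beside 11.2% and 19.1% of all tested genes, and voom on recovered reads called 12 lower and 0 higher. Without control replicate 2 there were 15 lower and 10 higher calls (8.15% and 5.43%), beside 5.11% and 5.30% of all tested genes in that setting. Lower calls fell in number with any other library left out: there were 3, 4 and 1 without NaCl replicates 1, 2 and 3, and 1 and 0 without control replicates 1 and 3. Split by function term, the pathway's 56 tested regulator genes other than Cs_ont_1g019000 gave 6 lower calls and a median of -0.11, and its 128 other tested genes gave 6 lower calls and a median of 0.22. The difference between these subsets was not tested. Of the other lists fixed by annotation, the MAPK signalling pathway gave 4 lower calls (4.26%) and 0 higher of 94 tested genes (median -0.04). At an unadjusted p under 0.05, 23 of its genes were lower and 8 higher (24.5% and 8.51%). Circadian rhythm gave 1 lower call (3.23%) and 0 higher of 31 (median 0.31). It had 2 lower and 9 higher at an unadjusted p under 0.05 (6.45% and 29.0%). By voom the MAPK pathway had 5 lower and 0 higher calls and circadian rhythm 1 and 0, and without control replicate 2 they had 12 and 2 and 1 and 4. Genes with a nucleus or nuclear component term, which the pair carries, gave 47 lower and 13 higher calls of 2562 tested without the pair. These were 1.83% and 0.507%, beside 1.75% and 0.978% of all tested genes, and the median was 0.17.

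The genes with a profile most like the pair were found by the root mean square difference of log2(FPKM + 1), centred on the mean of each gene, over the 6 libraries and 17285 tested genes. A value of 0 would mean identical profiles. The measure contains the contrast by which the pair was chosen, so it is a description. Cs_ont_2g031420, a gene of 7660 bases with no function or pathway term, was nearest to both, at 0.41 from Cs_ont_9g007110 and 0.11 from Cs_ont_1g019000. It had 4.91, 2.82 and 1.42 FPKM in NaCl and 65.2, 30.9 and 87.8 FPKM in control, and it repeats the order of the 6 libraries of the pair. Its log2 difference of -3.92 equalled that of Cs_ont_1g019000 to 2 decimals, at a lower level: Cs_ont_1g019000 held 6.63, 7.76 and 8.07 times its FPKM in NaCl and 5.74, 6.41 and 5.04 times in control.

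The pair were close to each other as well. Cs_ont_1g019000 was the second nearest gene to Cs_ont_9g007110, at 0.42, and Cs_ont_9g007110 was the 6th nearest to Cs_ont_1g019000. The third nearest to Cs_ont_9g007110, at 0.46, was a gene with no function or pathway term that had 3.82, 1.51 and 1.10 FPKM in NaCl and 142, 80.8 and 130 FPKM in control. It fell further than Cs_ont_9g007110 and had control replicate 1 as its highest library.

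Cs_ont_1g018990, whose identifier is the next lower number to Cs_ont_1g019000, was the second nearest to that gene, at 0.31. It is placed in plant hormone signal transduction and has no function term. It had 41.4, 17.2 and 15.6 FPKM in NaCl and 302, 170 and 391 FPKM in control, so its NaCl mean was 8.60% of its control mean. Its levels were close to those of Cs_ont_1g019000 in every library, with a ratio of Cs_ont_1g019000 to Cs_ont_1g018990 of 0.785, 1.27 and 0.732 in NaCl and 1.24, 1.16 and 1.13 in control. Whether reads were shared between similar sequences of such genes was not tested, and the values of both are uncertain to that extent. The third nearest, at 0.39, was a gene of tyrosine metabolism and isoquinoline alkaloid synthesis with 5.03, 2.70 and 1.44 FPKM in NaCl and 36.9, 18.5 and 67.4 FPKM in control.

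**Figure D4:**
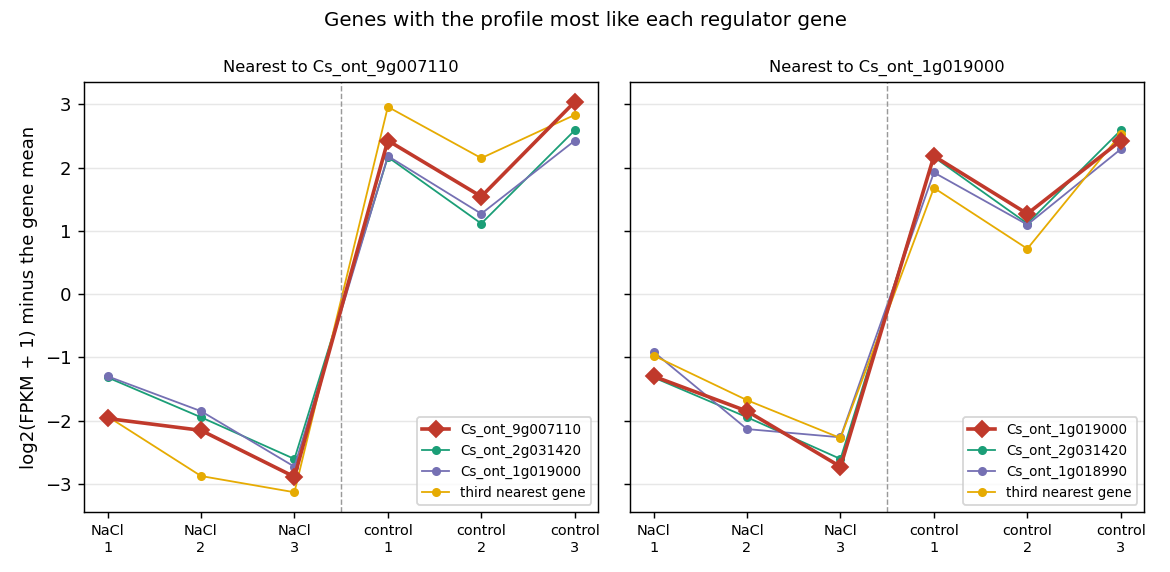
Centred log2(FPKM + 1), each value minus the mean of its gene over the 6 libraries, for Cs_ont_9g007110 (left) and Cs_ont_1g019000 (right) with the 3 genes nearest to each; libraries run from NaCl 1 to 3 and then control 1 to 3, and the lines join the points of a gene. Control replicate 2 dips in every line, and Cs_ont_2g031420 follows Cs_ont_1g019000 most closely, at a root mean square difference of 0.11.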

How the data were processed

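Leaf RNA-seq of 3 NaCl and 3 control samples was used, grouped by the sample titles and treatment labels. HISAT2 was the aligner in both sources at hand, but the study's methods give featureCounts as the counter and the submitters' processing notes give HTSeq. The notes give no versions. The authors deposited FPKM per gene and library, with GO and KEGG terms. Their columns of group means, log2 fold changes, p-values and calls were not used. The gene identifiers are of the Cs_ont series, which the assembly named in the study's methods may not share, and 0 of them matched the reference table of gene names, so no names, coordinates or sequences are given. GO process terms of both genes were not used here.

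The test was limma 3.58.1 (mean-variance trend) in R 4.3.3 on log2(FPKM + 1) for the 17285 of 29875 genes that reached 0.5 FPKM in 3 or more libraries, with no covariate and Benjamini-Hochberg adjustment over those genes. A fold change on this scale understates the change of low genes. With 3 libraries a group, p-values weigh the group difference against the spread between these libraries only. The variance of each gene was moderated toward a trend over all tested genes. Python 3.11.15 with pandas 2.3.3 was used for the tables. FPKM ratios between libraries returned whole reads, and with them gene lengths, in 100% of the 23073 genes above 0 (relative tolerance 1e-09), and limma with voom weights on these reads was an alternative, which called 145 genes higher and 267 lower. The test was checked on simulated data.

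The genes and lists were chosen with earlier results of these data known. The text names the pair, the 3 genes nearest to each in profile, and the 4 other regulator genes with the largest calls in each direction; since no names are paired with the identifiers, at most 2 further identifiers that fell and 2 that rose are printed. Replicate numbers were not treated as pairs.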

Additional observations from a re-analysis of the deposited data

How the results depend on the processing

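The log2 differences ran from -5.10 to -4.32 for Cs_ont_9g007110 and from -4.27 to -3.54 for Cs_ont_1g019000 over the alternatives tried. Their direction could not have changed under these settings. The genes were picked for this fall, and the lowest control library exceeded the highest NaCl library 13.9-fold for Cs_ont_9g007110 and 6.09-fold for Cs_ont_1g019000. The ranks of the 2 genes ran from 4 to 40 and from 6 to 88. Counts of calls were far less stable, and the cause was not tested. Without a minimum on FPKM, 12 genes were called higher and 28 lower in all, 0 and 2 among other regulators, and 6 and 11 in the other annotation lists together, which had 75 and 143 by the test as given above. With a pseudocount of 0.01 the counts were 110 and 198 in all, 2 and 14 among other regulators, and 89 lower in the other lists. Upper-quartile scaling gave 85 higher in all, 3 among other regulators and 34 in the other lists, and quantile normalization 49 higher in the other lists; both scalings moved the median of all genes to 0.08. With the replicate number as a block, 1 and 6 genes were called in all, 0 and 2 among other regulators, 0 and 5 in the other lists, and 0 corepressors lower. Deviations of same-numbered libraries from their group means had correlations of -0.0343, 0.0260 and -0.0710, and no library correlated best with its own number. Whether same-numbered libraries share a batch was not tested, and the counts with the block do not show a weaker effect. With 1 library left out, calls ranged from 0 to 916 higher and 0 to 884 lower in all, from 0 to 42 and 0 to 63 among other regulators, and from 0 to 435 and 0 to 419 in the other lists. The highest counts came without control replicate 2. By Pearson correlation in place of the root mean square difference, 0 of the 3 genes most like Cs_ont_9g007110 and 1 of the 3 most like Cs_ont_1g019000 remained. Depth limits Cs_ont_9g007110 most, with 22 to 47 reads per NaCl library.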
